A study of Mus musculus with 4 samples.

Results

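Cdx1, Cdx2, Eomes, Elf5, Elf3 and Ets2 form a list of transcription factors grouped under the self-renewal of trophoblast stem cells (TSCs). They were read out by name in bulk poly(A) RNA-seq libraries of 4 mouse cell cultures. The name is that of the list, and Cdx1 and Elf3 had their lowest levels in the TSC culture. The genes are taken by name with no threshold on their values, though the list was drawn up with earlier results of these data known, and its 6 members were among 37620 gene identifiers counted. Each condition was read here in 1 library, so no difference below has a replicate check and no test was made. R1 mouse embryonic stem cells (mESCs), 1 established line, were grown without feeders in medium with serum for 2 days. The 2i−L culture received CHIR99021 (3 µM), which blocks GSK3 and so raises Wnt/β-catenin signaling, together with PD0325901 (1 µM), which blocks MEK, and no LIF was added. For 2iJ a JAK inhibitor (2 µM), which blocks signaling from LIF receptors, joined both compounds. The 2iJ+B−A culture had these 3 inhibitors plus BMP4 (10 ng/ml) and ALK5 inhibitor II (10 µM), a blocker of Nodal and Activin receptors. CHIR99021 and PD0325901 were thus present in all 3 mESC samples. The fourth sample was TSCs of the F4 line, 1 line with a day 2 label, whose medium followed an established protocol for this cell type. TSCs and mESCs differed in line, cell type and medium, and what each of these contributes to a difference cannot be told apart.

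Between 33913984 and 36964392 read pairs were counted on genes per sample. Levels are given as CPM, counts divided by library size and scaled by the trimmed mean of M values (TMM), and where genes are compared with each other as CPM per kb of exon. With these depths, 3 counts amounted to 0.0799 to 0.0902 CPM. Intervals are 95% exact Poisson intervals of a count, or Clopper-Pearson intervals of a ratio, and cover counting error only. A gene was called higher or lower where log2(CPM + 0.5) differed by 1 or more, over the 14263 genes that reached 1 CPM in any sample. All 6 members passed this filter, Elf5 through the TSC sample alone. Of the 8 genes fixed as pluripotency markers, none was called in 2iJ+B−A against 2iJ, though each was lower there, at a median log2 ratio of −0.65. Over all genes the median in that comparison was −0.002, with 5.81% called higher and 3.17% lower. In TSCs against 2iJ, 6 of the markers were called lower and Utf1 higher, at 66.1 and 174 CPM. Over all genes, 17.6% were called lower and 19.4% higher in TSCs against 2iJ. The summed level of the 8 markers was 3787, 3341, 2334 and 710 CPM in 2i−L, 2iJ, 2iJ+B−A and TSCs.

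TSCs are the self-renewing cells of the trophectoderm, the outer layer of the blastocyst that builds the fetal part of the placenta, and they are usually kept with FGF4 and factors made by fibroblasts. Cdx2, a caudal-type homeobox gene, is required for the trophectoderm, and its relative Cdx1 is best known as a Wnt-responsive gene of the posterior embryo. Eomes, a T-box gene, acts in the trophectoderm and later in the primitive streak. Elf5, Elf3 and Ets2 belong to the ETS family: Elf5 forms a positive loop with Cdx2 and Eomes in TSCs, and its promoter is methylated in embryonic stem cells. Ets2 is needed in the trophoblast and can be activated by ERK, the kinase downstream of the FGF receptor and of MEK. Elf3 is known mainly from epithelia.

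The 250 bases before the transcription start of Cdx2, Eomes and Elf5 are shown because these 3 genes form the known loop of TSCs and because they parted from each other in 2iJ+B−A. The sequences are RefSeq promoter windows of GRCm38.p6, and each matched the NCBIM37 genome exactly and once. They read 5′ to 3′ on the strand of the gene, with each CpG in capitals. The Cdx2 window lies at chr5:148118826-148119075 on the minus strand, the Eomes window at chr9:118387057-118387306 on the plus strand, and the windows of both Elf5 starts at chr2:103252005-103252254 and chr2:103263975-103264224 on the plus strand.
Cdx2: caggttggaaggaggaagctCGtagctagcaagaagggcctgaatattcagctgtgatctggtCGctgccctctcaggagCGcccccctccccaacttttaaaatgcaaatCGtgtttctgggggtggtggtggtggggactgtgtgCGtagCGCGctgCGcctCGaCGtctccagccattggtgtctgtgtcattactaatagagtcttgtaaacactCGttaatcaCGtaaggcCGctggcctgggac
Eomes: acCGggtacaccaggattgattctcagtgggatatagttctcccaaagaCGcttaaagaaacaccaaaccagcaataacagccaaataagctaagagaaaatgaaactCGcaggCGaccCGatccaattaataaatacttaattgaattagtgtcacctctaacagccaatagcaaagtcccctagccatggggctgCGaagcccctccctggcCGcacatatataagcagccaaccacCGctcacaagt
Elf5, start 1: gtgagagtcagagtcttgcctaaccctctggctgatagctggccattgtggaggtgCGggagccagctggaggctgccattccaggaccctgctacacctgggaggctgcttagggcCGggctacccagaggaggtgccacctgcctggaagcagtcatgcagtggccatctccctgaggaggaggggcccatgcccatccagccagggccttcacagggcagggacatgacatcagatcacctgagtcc
Elf5, start 2: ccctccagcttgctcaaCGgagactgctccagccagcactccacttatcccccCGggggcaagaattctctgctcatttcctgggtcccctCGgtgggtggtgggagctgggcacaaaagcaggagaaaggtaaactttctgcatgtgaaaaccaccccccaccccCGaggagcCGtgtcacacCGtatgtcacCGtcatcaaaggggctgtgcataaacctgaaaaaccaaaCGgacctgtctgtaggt

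CpG content differed between these windows. Over the full RefSeq window of 250 bases before and 50 after the start, Cdx2 held 18 CpGs, Eomes 10, the first Elf5 start 3 and the second Elf5 start 10. The median was 7 over 32544 mouse promoters of distinct sequence. Promoters on chromosome 18, where Cdx1 lies, were left out, and shares of all promoters below refer to this set. The Ets2 window held 30 and the Elf3 window 12. The first Elf5 start was thus poorer in CpG than the other windows, with 23.1% of all promoters holding fewer, whereas 88.2% held fewer than Ets2. Fixed words were searched on both strands. The CDX word CATAAA was found at the second Elf5 start, 37 bases before it, and is held by 11.9% of all promoters. The TCF/LEF word CTTTGAT was found in that same window, 52 bases before the start, and is held by 3.73%. The TEAD word CATTCC was found 173 bases before the first Elf5 start and 235 bases before that of Elf3, with 14.6% of all promoters holding it. The ETS word CCGGAAG and the T-box word AGGTGTG, held by 8.91% and 5.86% of promoters, were not matched in these windows. A matched word is a description of letters and not a site that was measured.

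**Figure D1:**
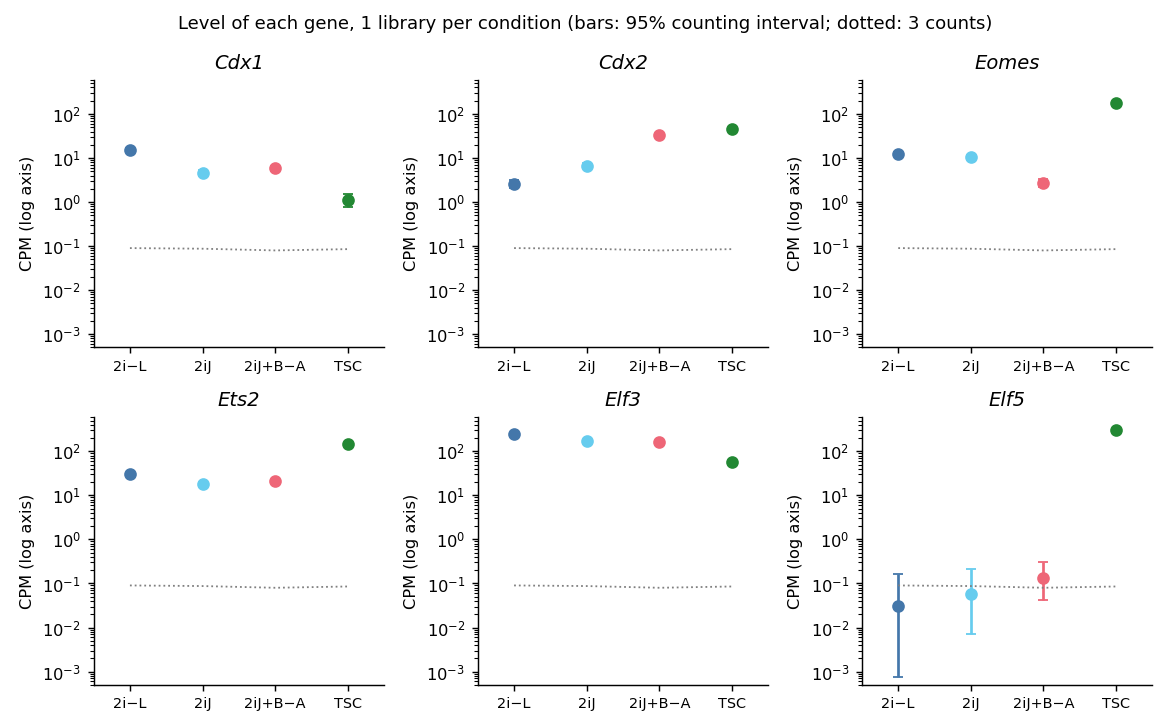
CPM on a log axis of each gene in the 4 samples, 1 point per sample, with the 95% counting interval as bars and 3 counts as the dotted line. Elf5 lies at 1, 2 and 5 counts in the mESC samples and at 298 CPM in TSCs, Cdx2 climbs from 2.62 to 45.1 CPM across the samples as ordered, and Cdx1 and Elf3 are lowest in TSCs.

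The question of the 2iJ+B−A sample was how far a signal combination moves mESCs toward a trophoblast-like expression pattern. Of the 6 genes only Cdx2 was called higher there against 2iJ, and Eomes was called lower, while 5.81% of the 14263 genes were called higher and 3.17% lower. The median log2 ratio of the members was 0.18, against −0.002 over all genes tested. Between TSCs and 2iJ, Cdx2, Eomes, Elf5 and Ets2 were called higher and Cdx1 and Elf3 lower, so that every member was called, where 19.4% of all genes were called higher and 17.6% lower. The median log2 ratio of the members was 2.79, against 0.003 over all genes. Elf5 passed the filter through TSCs alone, so its calls in TSCs are not independent of that filter, here and in the next comparison. Between TSCs and 2iJ+B−A, Eomes, Elf5 and Ets2 were called higher and Cdx1 and Elf3 lower, with 16.4% and 16.2% of all genes called in these directions and medians of 1.58 for the members and 0.003 for all genes. For the JAK inhibitor alone, 2iJ against 2i−L, Cdx2 was called higher and Cdx1 lower, where 1.23% and 0.918% of all genes were called, and the medians were −0.37 for the members and 0.005 for all genes. These comparisons share samples (2iJ stands in 3 of them), so that they are not independent of each other. In bulk RNA, fewer cells with a gene and less of its RNA per cell cannot be told apart.

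**Figure D2:**
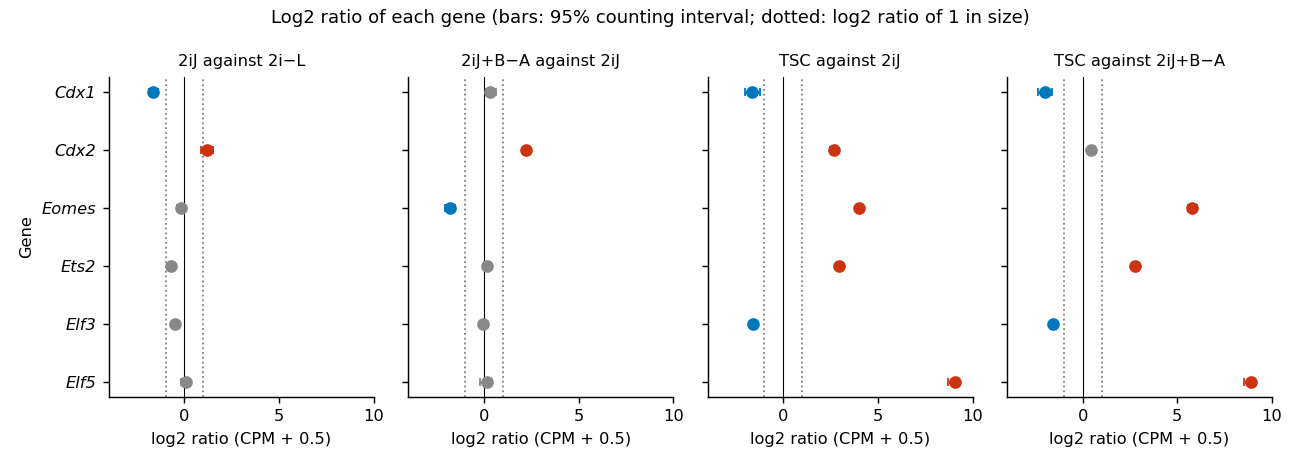
Log2 ratio of CPM + 0.5 of each gene (rows) in 4 comparisons (panels), with 95% counting intervals as bars. Red points were called higher, blue points lower and grey points neither, at a log2 ratio of 1 in size (dotted lines), and only Cdx2 is red in 2iJ+B−A against 2iJ.

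Cdx2 (ENSMUSG00000029646; NCBIM37 chr5:148112381-148118846, minus strand) had 87, 230, 1263 and 1582 counts in 2i−L, 2iJ, 2iJ+B−A and TSCs, or 2.62, 6.70, 33.6 and 45.1 CPM. It was 2.56-fold higher in 2iJ than in 2i−L (1.99 to 3.32) and 5.02-fold higher in 2iJ+B−A than in 2iJ (4.36 to 5.80). The level in TSCs was 1.34-fold that of 2iJ+B−A (1.24 to 1.44), with a log2 ratio of 0.42 that was not called. The order of the 4 samples was therefore 2i−L, 2iJ, 2iJ+B−A and TSCs, and no neighbouring counting intervals overlapped. In rank per kb among 14251 genes with a length, Cdx2 passed from percentile 23.6 in 2i−L and 36.9 in 2iJ to 71.2 in 2iJ+B−A and 76.9 in TSCs.

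Cdx1 (ENSMUSG00000024619; NCBIM37 chr18:61178516-61195853, minus strand) was highest in 2i−L and lowest in TSCs, with 507, 155, 221 and 39 counts, or 15.2, 4.51, 5.88 and 1.11 CPM. It was 3.38-fold lower in 2iJ than in 2i−L (2.82 to 4.07), and 1.30-fold higher in 2iJ+B−A than in 2iJ (1.06 to 1.61), a difference below the call. In TSCs it was 4.06-fold lower than in 2iJ (2.84 to 5.93) and 5.30-fold lower than in 2iJ+B−A (3.75 to 7.65). The 2iJ and 2iJ+B−A levels were neighbours in this order, with intervals of 3.83 to 5.28 and 5.13 to 6.71 CPM that overlapped. No RefSeq promoter entry for Cdx1 was used here.

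Set side by side per kb, the pair exchanged places. In 2i−L the level of Cdx1 per kb was 7.53 times that of Cdx2 (5.99 to 9.57). In 2iJ the ratio of Cdx2 to Cdx1 was 1.15, with an interval that included 1 (0.933 to 1.42). Cdx2 was at 4.42 times Cdx1 in 2iJ+B−A (3.83 to 5.13) and at 31.4 times in TSCs (22.9 to 44.3). Of the summed level of Cdx1, Cdx2 and Cdx4 per kb, Cdx2 took 11.5%, 50.7%, 78.4% and 96.7% in 2i−L, 2iJ, 2iJ+B−A and TSCs. Cdx4, the remaining caudal gene, had 13, 20, 55 and 3 counts and never passed 5.08% of the sum.

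Both genes next to Cdx1 were called lower together with it in 2iJ against 2i−L, and 1 of them in TSCs against 2iJ and 1 in TSCs against 2iJ+B−A. Slc6a7, a proline transporter gene 4.66 kb away, and Pdgfrb, a growth factor receptor gene 8.95 kb away on the other side, are these neighbours (log2 ratios in 2iJ against 2i−L of −1.16 and −1.10, against −1.65 for Cdx1). Their counts in the 4 samples were 263, 112, 94 and 48 for Slc6a7 and 348, 158, 350 and 147 for Pdgfrb. Against 2iJ, the log2 ratio of Pdgfrb in 2iJ+B−A was 0.94 and that of Cdx1 was 0.35. Across all members, 12 nearest protein-coding neighbours were taken, of which 8 passed the filter. Of these 8, 2 were called in 2iJ against 2i−L, both at Cdx1, and none in 2iJ+B−A against 2iJ. In TSCs against 2iJ, 2 were called, Pdx1 higher and Slc6a7 lower (log2 ratio −1.01, against −1.64 for Cdx1). Over all genes, 1.23% and 0.918% were called higher and lower in 2iJ against 2i−L. These shares were 5.81% and 3.17% in 2iJ+B−A against 2iJ, and 19.4% and 17.6% in TSCs against 2iJ. In TSCs against 2iJ+B−A, Pdx1 was called higher and Pdgfrb lower (−1.07, against −1.99 for Cdx1), and Slc6a7 was at −0.69. There, 16.4% and 16.2% of all genes were called higher and lower. Next to Cdx2, the homeobox gene Pdx1, 22.8 kb away, was called higher in TSCs against 2iJ, with 6, 9, 21 and 208 counts. Pdx1 passed the filter through TSCs alone, so its calls in TSCs are not independent of it.

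Eomes (ENSMUSG00000032446; NCBIM37 chr9:118387330-118395250, plus strand) had 413, 366, 103 and 6282 counts, or 12.4, 10.7, 2.74 and 179 CPM. It did not follow Cdx2 in 2iJ+B−A. There it was 3.89-fold lower than in 2iJ (3.12 to 4.89), and in TSCs it was 65.3-fold higher than in 2iJ+B−A (53.7 to 80.1) and 16.8-fold higher than in 2iJ (15.1 to 18.7). The levels in 2i−L and 2iJ had overlapping intervals, 11.3 to 13.7 and 9.59 to 11.8 CPM. In percentile per kb, Eomes stood at 37.1, 34.5, 15.9 and 90.1. Per kb, Eomes and Cdx2 were near each other in 2iJ, at a ratio of 0.866 (0.732 to 1.03). Eomes was at 2.58 times Cdx2 in 2i−L (2.05 to 3.29) and at 2.16 times in TSCs (2.05 to 2.29), and Cdx2 at 22.5 times Eomes in 2iJ+B−A (18.4 to 27.8). Taken by the length of the longest coding transcript, Eomes was at 2.52 times Cdx2 in TSCs (2.39 to 2.67) and at 1.01 times in 2iJ (0.855 to 1.20).

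Because Eomes also belongs to the primitive streak, T (Brachyury), the T-box gene of streak and mesoderm, was set beside it. T had a level of 2.95, 2.85, 0.160 and 2.51 CPM and was called lower in 2iJ+B−A against 2iJ (log2 ratio −2.35), as Eomes was. Of 10 primitive streak genes, 4 passed the filter, and T, Wnt3 and Fgf8 were called lower in 2iJ+B−A against 2iJ, as were 3.17% of all genes. Evx1, the other gene that passed, went the other way, at a log2 ratio of 0.86 (16 counts in 2iJ and 47 in 2iJ+B−A). Gsc, which did not pass the filter, had 1 and 37 counts. Fgf8 passed the filter through 2iJ alone and Evx1 through 2iJ+B−A alone, so their ratios are not independent of it. The summed level of the 10 was 11.9, 17.9, 6.60 and 6.61 CPM. The part of such cells in the Eomes values was not tested. Of 17 T-box genes, 9 passed the filter. In 2iJ+B−A against 2iJ, Tbx2, Tbx3, Tbx15, Tbx18 and Tbx20 were called higher, and Eomes and T lower. Tbx2 passed the filter through 2iJ+B−A alone, and Tbx18 through 2iJ+B−A and TSCs, so their calls are not independent of it. Of all genes, 5.81% were called higher and 3.17% lower. Tbx3 held 63.8% of the family's summed level per kb in 2iJ+B−A, and Eomes 57.1% in TSCs.

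Elf5 (ENSMUSG00000027186; NCBIM37 chr2:103251845-103291146, plus strand) was near absent from the mESC samples at this depth. It had 1, 2 and 5 counts in 2i−L, 2iJ and 2iJ+B−A and 10471 counts, or 298 CPM, in TSCs. The 3 mESC counts lie close together, with 5 against 2 counts giving a ratio of 2.29 with an interval from 0.374 to 24, so that no order among them could be detected. Since counts are per gene, they do not say which of the Elf5 starts shown above was used. The ratio of TSCs to 2iJ+B−A was 2241, with an interval from 960 to 6903, and the ratio to 2iJ was 5121, with an interval from 1417 to 42292. Cat, 2.86 kb from Elf5, had 4156, 3441, 3683 and 2389 counts, and Ehf, an ETS gene 108.4 kb away on its other side, had 9, 8, 1 and 12.

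Ets2 (ENSMUSG00000022895; NCBIM37 chr16:95923682-95942658, plus strand) had 1001, 635, 786 and 5052 counts, or 30.1, 18.5, 20.9 and 144 CPM. The mESC samples lay within a range of 18.5 to 30.1 CPM, and no comparison among them passed the call. Ets2 was 7.78-fold higher in TSCs than in 2iJ (7.16 to 8.47) and 6.88-fold higher than in 2iJ+B−A (6.38 to 7.42). The ratio of 2iJ+B−A to 2iJ was 1.13 (1.02 to 1.26). Against TSCs, the 2iJ+B−A sample thus stood within 1.34-fold for Cdx2, while Ets2, Eomes and Elf5 were called higher in TSCs.

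Elf3 (ENSMUSG00000003051; NCBIM37 chr1:137150151-137155049, minus strand) had 8192, 5865, 6282 and 2003 counts, or 246, 171, 167 and 57.1 CPM. It was the ETS gene with the highest level per kb in the 3 mESC samples, and was 2.99-fold lower in TSCs than in 2iJ (2.85 to 3.15). The levels in 2iJ and 2iJ+B−A differed by a ratio of 0.979 (0.945 to 1.02). Elf3 is overlapped on the other strand by the lincRNA gene Gm16606, which had 8, 7, 7 and 7 counts, few beside those of Elf3.

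Within the ETS family, 26 genes were listed and 19 passed the filter. The order of the family per kb differed between mESCs and TSCs. Elf3 per kb was 19.3, 21.8 and 18.8 times Ets2 in 2i−L, 2iJ and 2iJ+B−A, and Ets2 was 1.07 times Elf3 in TSCs (1.02 to 1.13). Elf5 ranked first in TSCs, with 20.1% of the family's summed level, followed by Ets2 with 12.1% and Elf3 with 11.3%. Elf5 per kb was 1.78 times Elf3 in TSCs by union exon length, and 4.13 times by the length of the longest coding transcript, an alternative chosen after seeing the data. By that second length, Elf3 was 15.92, 17.96 and 15.55 times Ets2 in 2i−L, 2iJ and 2iJ+B−A. Ets2 was then 1.30 times Elf3 in TSCs (1.23 to 1.37). The counting intervals of ratios between genes do not cover this choice of length. In 2iJ+B−A against 2iJ, 1 of the 19 was called higher (median log2 ratio 0.24), Elf4 (2.75 on the log2 scale), and none lower. Of all genes, 5.81% were called higher there and 3.17% lower. In TSCs against 2iJ, 7 were called higher and 5 lower (median 0.14), where 19.4% and 17.6% of all genes were called. Among the ETS genes called, Etv4, whose subfamily is known as an output of FGF signaling, was at 1.41, 0.553, 1.01 and 42.4 CPM. Its relative Etv5 was at 299, 335, 242 and 63.0 CPM.

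**Figure D3:**
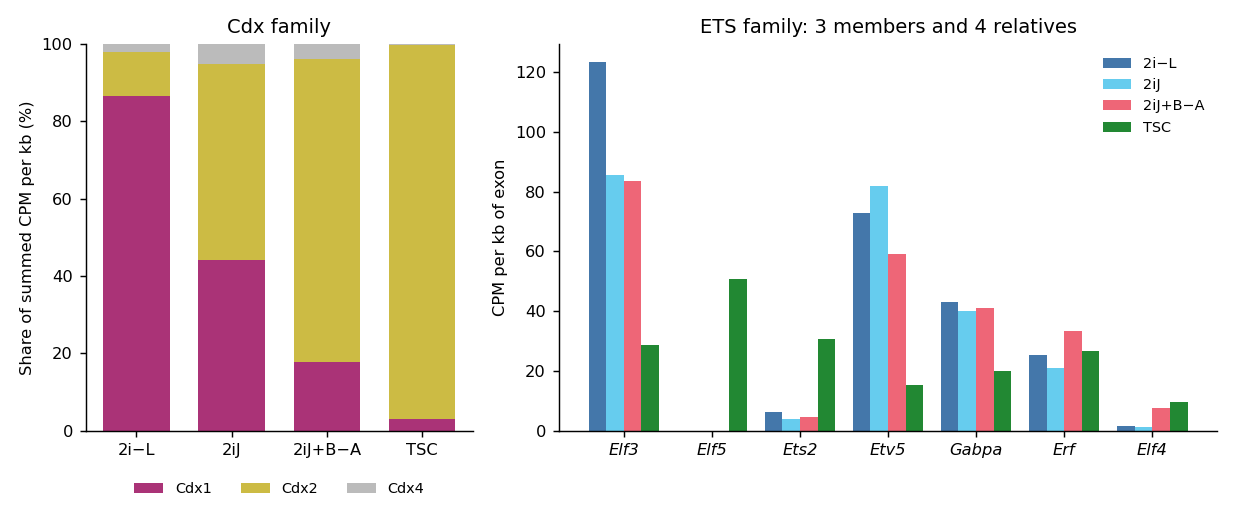
Left, share of the summed CPM per kb of Cdx1, Cdx2 and Cdx4 in each sample (stacked bars, in percent). Right, CPM per kb of exon of Elf3, Elf5, Ets2 and 4 relatives, a bar per sample. The share of Cdx2 is 11.5% in 2i−L and 96.7% in TSCs, and Elf5 has a visible bar in TSCs only.

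The other regulators of trophectoderm and TSCs in a list of 16, all of which passed the filter, were read against the members. In 2iJ+B−A against 2iJ, 10 of the 16 were called higher and none lower, at a median log2 ratio of 1.33. Over all genes, 5.81% were called higher and 3.17% lower, at a median of −0.002. The list was chosen with earlier results of these data known. The zinc finger genes Gata2 and Gata3 stood at 3.33 and 1.31, the bHLH gene Hand1 at 5.84 and Ascl2 at 2.99. Id2, a target of BMP signaling, stood at 2.98. Fgfr2, which TSCs use to receive FGF4, stood at −0.92. In TSCs against 2iJ, 11 were called higher and Tfap2a and Sox2 lower, at a median of 2.18. Of all genes, 19.4% were called higher there and 17.6% lower. Sox2, like Esrrb, is also among the pluripotency markers. Gata2 was higher in 2iJ+B−A than in TSCs, with 236 against 84.3 CPM, and Tfap2a with 41.0 against 3.33 CPM. Hand1 was at 1.31, 104 and 383 CPM in 2iJ, 2iJ+B−A and TSCs, and Tead4, needed for the trophectoderm upstream of Cdx2, at 8.88, 19.5 and 97.2. In 2iJ against 2i−L, Gata3, Gata2 and Id2 were called higher, as were 1.23% of all genes.

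**Figure D4:**
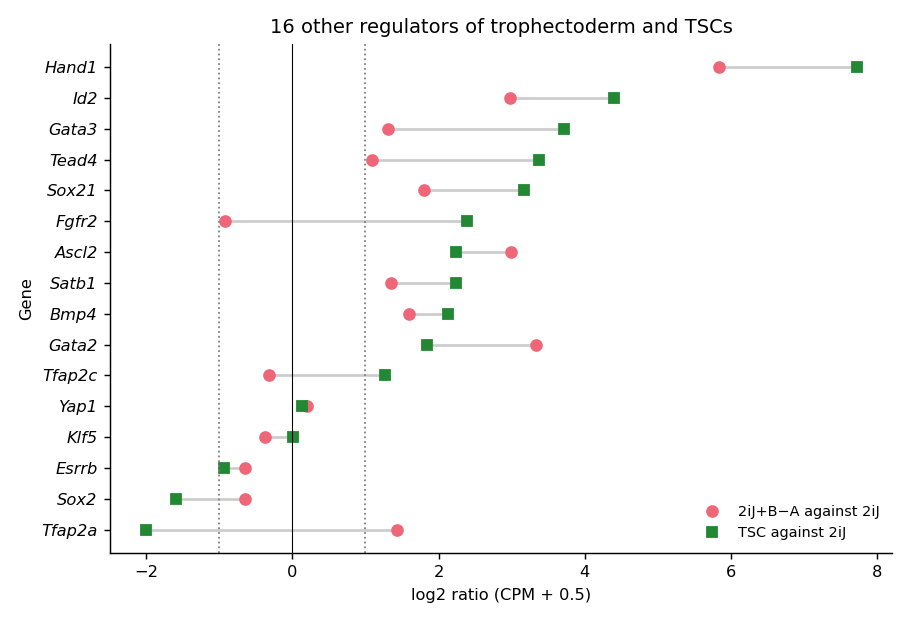
Log2 ratio of CPM + 0.5 against 2iJ of 16 further regulators, ordered by the TSC value, with 2iJ+B−A as circles and TSCs as squares, and dotted lines at a ratio of 1 in size. Of the circles, 10 lie to the right of the line at 1 and none to the left of −1, while Tfap2a and Sox2 are the squares to the left of −1.

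The genes through which TSCs receive FGF4 were followed with the members. Fgfr2, the FGF receptor of TSCs, was at 25.7, 49.7, 26.1 and 263 CPM. Fgf4 itself, made by pluripotent cells, was at 6189, 4603, 3436 and 1 counts. Dusp6, Spry2 and Spry4 are feedback genes that ERK activity raises. Dusp6 was at 2.86, 3.82, 5.24 and 43.6 CPM, and Spry4 at 0.421, 0.175, 1.12 and 18.9 CPM, both highest in TSCs. Spry2 was at 12.4, 6.76, 17.6 and 9.49 CPM, highest in 2iJ+B−A and not called in TSCs against 2iJ. In this list of 15 inputs from FGF4, ERK and Nodal, none was called in 2iJ against 2i−L, Spry2 and Spry4 were called higher and Nodal lower in 2iJ+B−A against 2iJ, and 4 were called higher and 2 lower in TSCs against 2iJ. Spry4 passed the filter through 2iJ+B−A and TSCs only, so its calls are not independent of it. The medians of the list were 0.10, 0.12 and 0.71. Over all genes, 1.23%, 5.81% and 19.4% were called higher in these comparisons, and 0.918%, 3.17% and 17.6% lower. The MEK inhibitor was in the medium of all mESC samples and its use for the TSCs is not stated in the labels. Among 9 Wnt targets, none was called in 2iJ against 2i−L, and Nkd1 and Lgr5 were called higher and Sp5 and T lower in 2iJ+B−A against 2iJ. Lgr5 passed the filter through 2iJ+B−A alone, so its call is not independent of it. Axin2, Sp5, Lef1 and Notum were called lower in TSCs against 2iJ, at a list median of −0.89. Axin2 was at 49.6, 58.0, 66.5 and 4.22 CPM.

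Markers of other lineages also differed between the samples in which the members differed. Of 8 genes of the later placental lineages, 5 passed the filter, and the summed level of the 8 was 2.25, 6.41, 31.1 and 7.83 CPM in 2i−L, 2iJ, 2iJ+B−A and TSCs. Most of the sum came from Gcm1 in 2iJ and 2iJ+B−A, at 5.62 and 28.0 CPM, and 4 of the 8 were at 0 in 2iJ+B−A. Gcm1, the transcription factor of syncytiotrophoblast formation, had 48, 193, 1053 and 14 counts, so that it was called higher in 2iJ+B−A as Cdx2 was, and lower in TSCs, where Cdx2 was highest. Prl3d1, a giant cell gene, had 55 counts in TSCs and 0 in each mESC sample, which allows up to 3 counts (1-sided 95% limit). Of 8 primitive endoderm markers, none was at 0 in any sample, and Gata4, Gata6, Sox17 and Pdgfra were called higher in 2iJ+B−A against 2iJ. In that comparison 5.81% of all genes were called higher. Gata4 was at a log2 ratio of 1.01, close to the threshold. Sox17 passed the filter through 2iJ+B−A alone, and Gata6 through 2iJ+B−A and TSCs, so their calls are not independent of it. The whole list summed to 215, 310, 449 and 882 CPM, most of it from Sparc, a matrix protein gene, at 168, 264, 372 and 844 CPM. In TSCs against 2iJ+B−A, Gata4, Foxa2 and Sparc were called higher and Sox17 and Lama1 lower, with Lama1 at 52.4 and 2.62 CPM in 2iJ+B−A and TSCs. Over all genes, 16.4% were called higher there and 16.2% lower. Because Foxa2 passed the filter through TSCs alone and Sox17 through 2iJ+B−A alone, these calls too are not independent of it. Fibroblast markers, which feeder cells would bring, summed to 48.0, 41.0, 30.4 and 7.69 CPM, with 3 of 8 at 0 in TSCs. Between 2iJ and 2iJ+B−A, Col1a1 was called lower, at 18.8 and 4.34 CPM, while Pdgfrb was at 4.60 and 9.32 CPM, and the list median was 0.09. The part of these cell types in the members' values was not tested.

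The genes with the most similar pattern were taken as the 3 with the smallest Euclidean distance between centred log2 profiles over the 4 samples, among 10263 genes with at least 10 CPM in 1 sample. For Cdx2 they included Arhgef6 and the keratin gene Krt8. Krt8 was at 92.3, 134, 553 and 884 CPM. For Cdx1 they were Pcolce, Ankrd35 and Pou2f3, and for Eomes they included Acap1 and Gm13699, an annotated pseudogene. For Elf3 they were Fzd5, a Wnt receptor gene, with Tspyl2 and Acp6, and for Ets2 Prex1, Ppp2r2c and Xlr3a. For Elf5 they were Gm10260 and the annotated pseudogenes Gm13394 and Rps2-ps13, whose counts are uncertain because pseudogenes share sequence with other genes. Distances ran from 0.10 for Fzd5 to 1.15 for Gm10260. With 4 samples such distances are descriptions.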

How the data were processed

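The authors trimmed reads with TrimGalore and cutadapt at a quality cutoff of 20, aligned them with STAR 2.4.2a to NCBIM37 and deposited raw read pair counts per gene for 4 libraries, 1 per condition. Base calling used CASAVA 1.8.2 per the labels. The annotation release is not given in the sources used here. The deposited count column of the reverse strand was used as it stands. Reads that name no gene were left out: 82.2 to 83.6% of read pairs were counted on genes. Of 37620 identifiers, 37205 matched a symbol in GENCODE vM1, and older symbols were matched through RefSeq. Counts were scaled by TMM (edgeR 4.0.16 in R 4.3.3). Ratios used a pseudocount of 0.5 CPM. With 1 sample per condition there was no model and no test, and the scripts were checked on simulated data. Members, lists and alternatives were chosen with earlier results of these data known. Named genes were the members, genes of the lists, nearest protein-coding neighbours and the 3 nearest profiles per member. Some of these profiles are not reported here. Longest coding transcripts of the members were aligned with minimap2 2.31, with 0 alignments away from their own gene. Alternatives were DESeq2 1.42.0 size factors, total counts, the unstranded count, other filters, pseudocounts and thresholds, and 2i−L as the reference in place of 2iJ. Intervals and figures were made with scipy 1.17.1, numpy 2.4.6, matplotlib 3.10.9, pysam 0.24.0 and pandas 2.3.3 under Python 3.11.15.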

Additional observations from a re-analysis of the deposited data

Results flagged for a closer look

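Counts on the strand opposite to each gene lie outside the values used above. For 3 members these counts were higher in TSCs than in 2i−L beyond the counting intervals. Eomes had 45 opposite-strand counts in TSCs and 6 in 2i−L, Elf5 had 58 and 1, and Ets2 had 27 and 4. In TSCs they made up 0.711%, 0.551% and 0.532% of the counts on both strands, while over all genes the opposite strand held 3.32% in that sample. In 2i−L the share was 1.43% for Eomes and 0.398% for Ets2, and Elf5 had 1 count on each strand. Counts on the genes' own strand were also higher in TSCs than in 2i−L, at 6282 and 413 for Eomes, 10471 and 1 for Elf5, and 5052 and 1001 for Ets2. Whether the opposite-strand counts only follow these was not tested. The comparison has 1 sample per condition.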

How the results depend on the processing

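No paired analysis was possible because each condition has 1 sample, and for the same reason no replicate could be left out. Of 132 log2 ratios of the members under alternatives, 116 stayed inside the counting interval of the reported value, 16 lay outside it, and 0 of the called ones changed sign. With the pseudocount at 0.1 or 1 CPM, the Elf5 log2 ratio of TSCs to 2iJ was 10.88 or 8.14. When 2iJ+B−A was set against 2i−L, 2 members rather than 1 were called lower in 2iJ+B−A, Cdx1 joining at −1.30. Against 2iJ, Cdx1 was at 0.35 and not called, and Ets2 moved from 0.17 to −0.51, so that both changed sign. That setting is another contrast rather than a processing choice, and its ratios are among the 132. At a log2 threshold of 2, the members called in 2iJ against 2i−L were 0 higher and 0 lower, and those called lower were 0 in 2iJ+B−A against 2iJ, in TSCs against 2iJ and in TSCs against 2iJ+B−A. All genes called at that threshold were 3 higher and 5 lower in 2iJ against 2i−L, 141 and 58 in 2iJ+B−A against 2iJ, 1092 and 1080 in TSCs against 2iJ, and 792 and 990 in TSCs against 2iJ+B−A. In 2iJ against 2i−L, where 175 genes were called higher and 131 lower, a filter of 5 CPM gave 105 and 87, a pseudocount of 0.1 gave 422 and 230, and a pseudocount of 1 gave 94 and 87. Other scalings moved the median gene by at most 0.08 on the log2 scale. With 1 sample per condition, the spread between cultures is unknown, and the level of Elf5 in mESCs rests on 1 to 5 counts.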
